A study of Drosophila melanogaster with 18 samples.

Results

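The 4 genes described here belong to cyclic AMP signalling in Drosophila melanogaster, from the making of cyclic AMP to its effectors and a transcription factor below them. Ac78C encodes an adenylyl cyclase, Pka-C3 a catalytic subunit related to protein kinase A, Epac a cyclic AMP-gated activator of Rap GTPases, and CrebB a transcription factor of the CREB family. They were taken from the array by symbol, as the probe sets whose annotation gives one of these symbols alone. They are 4 of 11982 genes with such a probe set, and they have 6 probe sets of the 13647 with a single symbol: 1628412_at for Ac78C, 1635928_a_at for Pka-C3, 1631112_at and 1627587_at for Epac, and 1635570_a_at and 1631345_at for CrebB. Of these, 4 probe sets, 1 per gene, passed the filter on low values. Those of Epac and CrebB passed only through the groups in which they were high. The genes were chosen by their intensities over these same 6 groups, so their values are a description and carry no test.

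Cyclic AMP is made from ATP by adenylyl cyclases, which the G protein subunit Galphas switches on below hormone, neuropeptide and amine receptors. It frees the catalytic subunits of protein kinase A from their regulatory subunits, opens Epac and cyclic nucleotide gated channels, and is broken down by phosphodiesterases. Phosphorylated CREB proteins work with the coactivators Crtc and nej, the fly CBP. In the fly embryo protein kinase A is known for holding Hedgehog signalling off, and the pathway as a whole is best known from learning and memory in the adult brain.

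Total RNA of about 50 hand-selected whole embryos per sample was hybridised to Affymetrix arrays, in 6 groups of 3 biological replicates. The diploid embryos, called wild-type in the titles, came from w;histone H2-GFP parents and were taken 15 min after nuclear division 12 (cycle 13) and, in cycle 14, 15 min (early) and 40 min (late) after division 13. The haploid embryos came from maternal haploid;histone H2-GFP parents and were taken 15 min after division 13 (cycle 14) and, in cycle 15, 15 min (early) and 40 min (late) after division 14. Females mutant for maternal haploid lay eggs in which the paternal chromosomes are lost after fertilisation, so that the embryos develop with the maternal set alone. The haploid stages lie a cycle later than the diploid ones. Each diploid stage thus has a haploid counterpart with the same ratio of nuclear DNA to cytoplasm, though with more nuclei. These 3 counterparts are called the matched pairs here, and haploid cycle 14 against diploid early cycle 14 is called the same-cycle pair. All groups carried the GFP-tagged histone with which the cycles were followed. The promoter of that transgene and the cage or day of each collection are not given in the labels.

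Values are intensities after quantile normalisation of the 18 arrays, and the error of a mean is the SD over n = 3 arrays. A log2 difference is given with its standard error from one linear model over all 18 arrays. The background, 31.95, is the level below which 95% of the values of 20 negative control probe sets lie, and where the dimmer group lay below it on every array the fold is a lower bound. The deposited 2%-trimmed mean intensities ran from 145.5 to 279.1, and replicates correlated at r from 0.928 to 0.948. The stage markers followed the labels in diploids: the summed intensity of 8 zygotic markers ranged from 6499 to 7863 on the diploid cycle 13 arrays and from 20123 to 21074 at late cycle 14, while 6 maternal markers ranged from 18420 to 19669 and from 3885 to 4670. In haploids the zygotic sums were 9833 to 10602 at cycle 14, 14821 to 17896 at early cycle 15 and 17771 to 19562 at late cycle 15. The cycle 15 stages thus overlapped. The maternal sums fell without overlap, from 11572 to 13684 at cycle 14, to 8511 to 9235 and then to 1963 to 2475. None of 8 ovary and 3 muscle markers was above background on every array of any group. A GAPDH control probe set was at 965 ± 411 in diploid cycle 13 and between 49.2 and 152 on average in the other 5 groups. Its 5' partner was also highest there, at 361 ± 130. Another GAPDH control was highest in diploid cycle 13 too, at 3497 ± 90.4, with haploid cycle 14 close below at 3289 ± 65.2. The arrays of these groups did not overlap (3429 to 3599 and 3218 to 3347). This control was lowest in haploid late cycle 15 (427 ± 29.5). An 18S ribosomal RNA control was at 987 ± 289 in haploid late cycle 15 and between 224 and 396 on average in the other groups. The part of these differences in comparisons with diploid cycle 13 or haploid late cycle 15 was not tested.

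Ac78C was above background from the earliest stage and was brighter at each later stage of both series. In diploid embryos its intensity was 51.2, 93.7 and 62.9 on the 3 cycle 13 arrays. At early cycle 14 it was 604, 459 and 579, and at late cycle 14 it was 1550, 1612 and 1563. No array of one diploid stage overlapped those of the next, and all 9 arrays lay above background. The mean went from 69.3 ± 21.9 to 548 ± 77.5 and then to 1575 ± 32.9, which is a log2 difference of 3.02 ± 0.15 (8.11-fold) over the first diploid step and of 1.53 ± 0.15 (2.90-fold) over the second. In whole embryos a larger number of expressing cells and more RNA per cell cannot be told apart.

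In haploid embryos the 3 arrays of cycle 14 gave 545, 526 and 405 for Ac78C. Those of early cycle 15 gave 1076, 908 and 1045, and those of late cycle 15 gave 2137, 2134 and 2001. The 3 haploid stages again did not overlap. The means were 492 ± 76.1, 1010 ± 89.5 and 2090 ± 77.8, and the log2 differences were 1.04 ± 0.15 (2.06-fold) and 1.05 ± 0.15 (2.07-fold). The first haploid step was 1.97 ± 0.21 smaller on the log2 scale than the first diploid step, and the second was 0.48 ± 0.21 smaller than the second diploid step. Over the 5 scalings of the arrays tried, the second step ran from 0.47 to 1.09 in haploids and from 0.95 to 1.53 in diploids. The size of the gap between the second steps thus depends on the scaling.

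Pka-C3, whose human relative is PRKX, started lower. Its intensity was 4.0, 4.83 and 3.76 on the diploid cycle 13 arrays, all below background. It was 98.5, 96.8 and 86.7 at early cycle 14 and 555, 632 and 509 at late cycle 14. The first diploid step was therefore a difference of at least 2.94-fold, from 4.20 ± 0.564 to 94.0 ± 6.38, and the second, to 565 ± 62.0, was a log2 difference of 2.58 ± 0.14. Background sets the lower bound of the first step, and the true size of that step cannot be read from these arrays.

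The haploid arrays gave 66.2, 66.9 and 60.4 for Pka-C3 at cycle 14, 310.4, 323 and 312 at early cycle 15, and 1184, 1142 and 1272 at late cycle 15. All 9 lay above background and the 3 stages did not overlap. The means were 64.5 ± 3.59, 315 ± 6.98 and 1199 ± 66.5, with log2 differences of 2.29 ± 0.14 (4.89-fold) and 1.93 ± 0.14 (3.80-fold). The second haploid step was 0.66 ± 0.19 smaller on the log2 scale than the second diploid step. The size of this gap depends on how the arrays are scaled. The haploid and diploid steps were 2.05 and 2.22 on the deposited scale and 2.07 and 2.27 under median centring. They were 2.09 and 2.36 under ribosomal protein centring and 1.47 and 2.03 under poly-A spike centring.

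**Figure D1:**
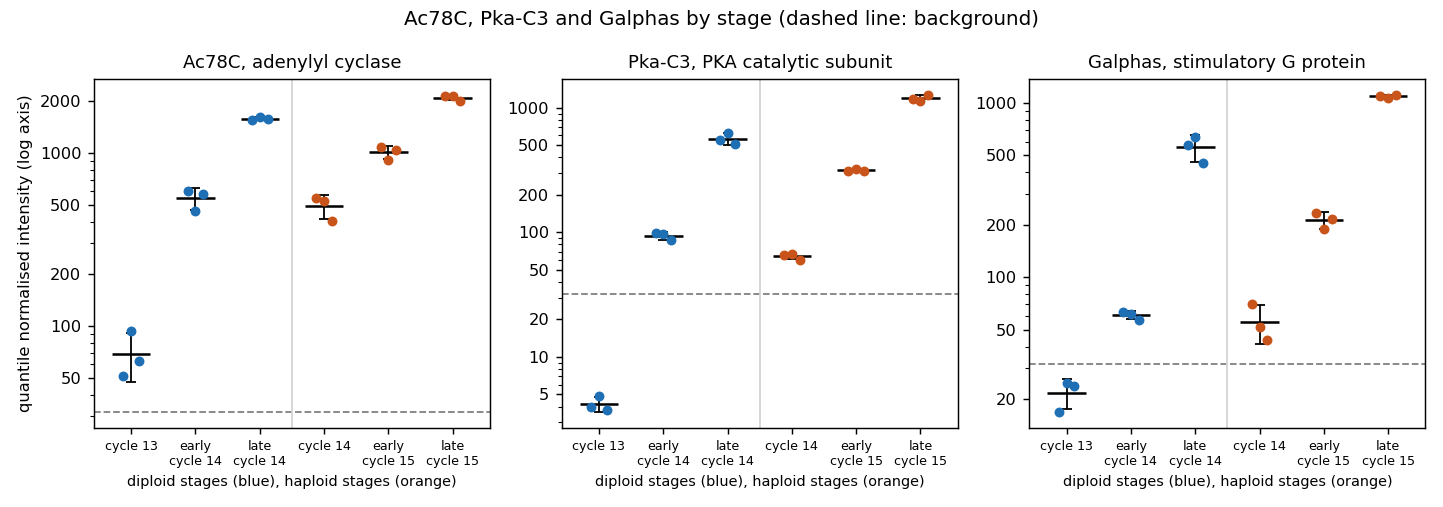
Quantile normalised intensity (log axis) of Ac78C, Pka-C3 and Galphas on each array of the 6 groups, with the mean (bar) and SD (whiskers, n = 3) and the background of 31.95 as a dashed line. All 3 genes step up from stage to stage, Pka-C3 and Galphas from below background at diploid cycle 13 to 1199 and 1092 on average at haploid late cycle 15.

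The 6 groups stood in the same order for Ac78C and Pka-C3. From lowest to highest this was diploid cycle 13, haploid cycle 14, diploid early cycle 14, haploid early cycle 15, diploid late cycle 14 and haploid late cycle 15. For Pka-C3 no neighbours in that order overlapped. For Ac78C only haploid cycle 14 and diploid early cycle 14 overlapped, with means of 492 and 548. The 3 matched pairs stand next to each other in this order, the haploid stage above the diploid one in each.

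At the same cycle and the same 15 min after division 13, haploid embryos had slightly less of both transcripts. The difference was -0.16 ± 0.15 on the log2 scale for Ac78C, where the arrays overlapped, and -0.54 ± 0.14 for Pka-C3, where they did not. This pair depends on how the arrays are scaled. On the deposited scale the median of all tested genes differed by -0.76 between these groups and the members by -0.97 and -1.56. Both differences were below 0 under every one of the 5 scalings tried, between -0.97 and -0.16 for Ac78C and between -1.56 and -0.54 for Pka-C3.

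Against their matched diploid stages the haploid embryos had more of both transcripts in all 3 pairs, with no overlap of arrays. The log2 difference of Ac78C was 2.86 ± 0.15 between haploid cycle 14 and diploid cycle 13, 0.89 ± 0.15 between the early stages of the next cycle, and 0.41 ± 0.15 between the late ones. For Pka-C3 the earliest pair differed by at least 2.02-fold, and the other pairs by 1.75 ± 0.14 and 1.09 ± 0.14. The gap narrowed from pair to pair for Ac78C. These differences were above 0 under all 5 scalings, and that of the earliest pair for Ac78C ran from 1.85 to 2.86, or from 3.61-fold to 7.26-fold.

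Haploid early cycle 15 was also set against diploid late cycle 14. Ac78C was 0.65 ± 0.15 lower and Pka-C3 0.84 ± 0.14 lower on the log2 scale in the haploid group, with no overlap. The step to late cycle 15 then took both above every diploid array. In the same 3 groups in which Ac78C and Pka-C3 were highest, diploid late cycle 14 and the cycle 15 stages, 1 of 5 measured nervous system markers, elav, was above background. The summed intensity of the 5 markers was 265 to 312 in diploid late cycle 14, 197 to 235 in haploid early cycle 15 and 807 to 905 in haploid late cycle 15, against 49.6 to 92.6 in the other groups. The other markers, nSyb, brp, repo and para, were not above background on every array of any group. With elav alone above background, these markers do not show that nervous system cells were present. Any part of such cells in the levels of the members was not tested.

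Epac and CrebB had their highest means at diploid cycle 13, where Ac78C and Pka-C3 were lowest, but at intensities near background. In haploids both were below background on every array and have no readable direction. Epac, which couples cyclic AMP to Rap without protein kinase A, gave 44.0, 48.7 and 42.6 with its brighter probe set on the diploid cycle 13 arrays. It gave 33.9, 59.9 and 36.5 at early cycle 14 and 3.97, 1.92 and 4.58 at late cycle 14. The earlier groups overlapped, with a log2 difference of -0.10 ± 0.74, and both lay above background on every array. Late cycle 14 lay below background on every array, at least 1.31-fold lower than early cycle 14.

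In haploid embryos Epac was below background on all 9 arrays. The values were 8.95, 6.71 and 1.98 at cycle 14, 14.8, 1.99 and 6.74 at early cycle 15, and 4.10, 1.85 and 3.67 at late cycle 15. Haploid cycle 14 was at least 1.41-fold lower than its matched stage, diploid cycle 13, and at least 1.31-fold lower than diploid early cycle 14. Early cycle 15 was also at least 1.31-fold lower than diploid early cycle 14. Between the late stages both groups were below background and no fold is given. The other Epac probe set, 1627587_at, was between 1.19 and 4.24 on all 18 arrays, below background throughout, and gives no level with which to check the first.

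CrebB, which binds cyclic AMP response elements and is known in adult flies for long-term memory, was at background. Its brighter probe set gave 28.6, 32.9 and 37.8 on the diploid cycle 13 arrays, 2 of them above background. The other 15 arrays were all below it. They gave 3.12, 7.41 and 1.28 at diploid early cycle 14 and 2.92, 1.92 and 1.41 at late cycle 14. The haploid arrays gave 1.82, 1.28 and 4.14 at cycle 14, 1.28, 1.34 and 1.31 at early cycle 15, and 15.7, 3.38 and 1.64 at late cycle 15. Diploid cycle 13 was the highest group, with no overlap with any other. The bound this allows is small: early cycle 14 was at least 1.03-fold lower, and haploid cycle 14 likewise at least 1.03-fold lower than diploid cycle 13. The other CrebB probe set, 1631345_at, was below background in all 6 groups.

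**Figure D2:**
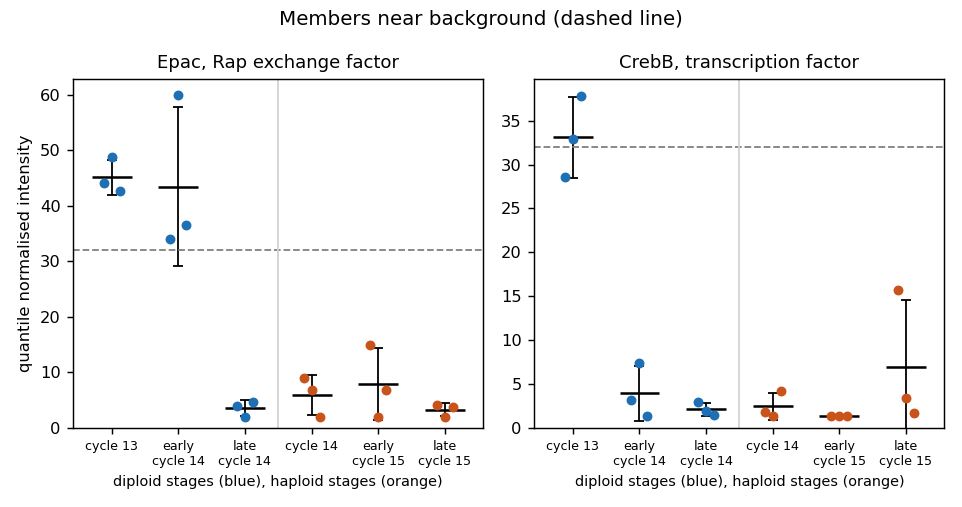
Quantile normalised intensity of the brighter probe sets of Epac and CrebB on each array, with the mean (bar), SD (whiskers, n = 3) and the background of 31.95 (dashed line). Epac lies above background on the 6 arrays of diploid cycle 13 and early cycle 14 alone, and CrebB on 2 arrays of diploid cycle 13.

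Counted by stage, 2 of the 4 members were higher without overlap of arrays in the first diploid step, where 26.9% of all tested genes were, and 1 was lower, against 19.7%. In the second diploid step 2 were higher (25.1% of all tested genes) and 1 lower (21.4%). In the first haploid step 2 were higher (16.8%), and among all tested genes 17.7% were lower. In the second haploid step 3 were higher (21.9%), CrebB at intensities below background among them, and among all tested genes 22.2% were lower. The members were chosen for these courses, so these counts are a description only.

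The genes whose course over the 18 arrays was most like that of each member were found among the other genes above background in at least 1 group, 6290 for Ac78C, Pka-C3 and Epac and 6291 for CrebB. The points share 6 groups, so these correlations mainly rank the agreement of 6 means. For Ac78C they were Inx3, a gap junction innexin (Pearson r = 0.992), nub, a POU-domain transcription factor (0.991), Pka-C3 itself (0.989), CG8064 (0.988) and link (0.987). For Pka-C3 they were the scavenger receptor gene Sr-CII (0.996), CG3502 (0.995), Inx3 (0.995), link (0.994) and nub (0.994). An r above 0.9 was reached by 539 genes with Ac78C and by 626 with Pka-C3, so this course was a common one on these arrays.

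Inx3 shows the shared course at a brighter level. Its mean was 181 ± 26.1, 1111 ± 135 and 3567 ± 208 over the diploid stages and 974 ± 103, 2297 ± 122 and 4267 ± 200 over the haploid ones, which is the same order of groups. For Epac the nearest genes were Strip (0.923), Sec13 (0.895), eIF5B (0.884), Tango5 (0.884) and AgmNAT (0.884), and only Strip passed 0.9. For CrebB they were CG12576 (0.921), wde (0.911), Cdc45 (0.902), CG33298 (0.902) and CG1074 (0.899). Both members correlate on values that lie mostly below background, where order carries little information.

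The rest of the pathway gives the setting of these 4 genes. Of 68 other genes listed for cyclic AMP signalling, 55 had a probe set with a single symbol and 43 were tested. Pka-C1, Pka-C2, Pka-R2, Rap1, Ac3 and CrebA were among those not analysed here. A gene was called at a Benjamini-Hochberg adjusted p below 0.05 in the limma fit. In the first diploid step 7 of the 43 were called higher and 5 lower (16.3% and 11.6%), where 19.8% and 13.1% of all tested genes were. In the second diploid step 5 were higher and 6 lower (11.6% and 14.0%), against 17.4% and 16.2%. In the first haploid step 6 were higher and 4 lower (14.0% and 9.30%), against 11.7% and 12.4%, and in the second 8 were higher and 7 lower (18.6% and 16.3%), against 16.6% and 17.9%. These shares lie near those of all genes. The median log2 difference of the 43 genes was 0.03, 0.04, -0.06 and 0.09 in the 4 steps, and that of all tested genes 0.10, 0.03, 0.02 and -0.02. The calls include the regulatory subunit gene Pka-R1 in 3 of the steps, although it was below background on all 18 arrays and has no readable direction. Successive steps share the arrays of the stage between them. Of the 48 calls of list genes in the 4 steps, 26 held under all 4 other scalings and 22 were lost under at least 1, and calls named below are those of the quantile normalised values.

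**Figure D3:**
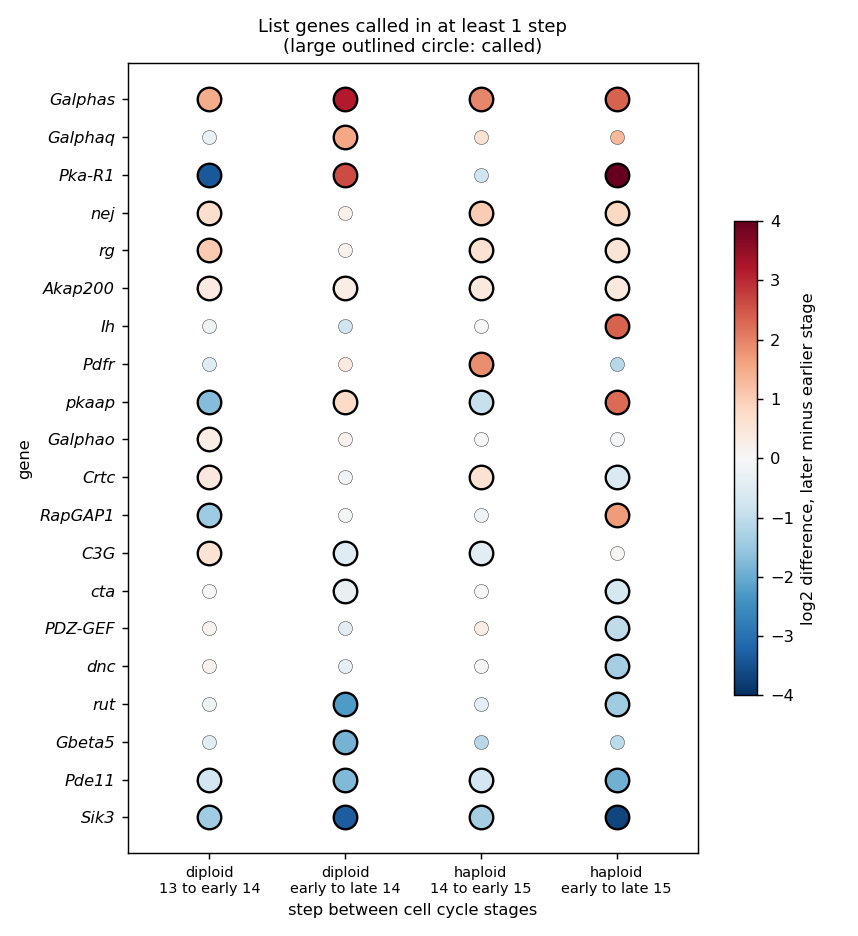
Log2 difference (colour, later minus earlier stage) of the 20 genes of the cyclic AMP list called in at least 1 of the 4 steps, in each step. Large outlined circles are called at an adjusted p below 0.05, and Galphas at the top and Sik3 and Pde11 at the bottom are called in the same direction in all 4 columns.

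At the level of receptors little was detected. Of 17 receptors with a probe set 11 were tested, and Pdfr, the receptor of the neuropeptide PDF, was the only one called in any of the 4 steps. It was 68.8 ± 17.0 in haploid early cycle 15 and 21.5 ± 14.4 in haploid cycle 14, where 1 of 3 arrays was above background (log2 difference 1.85 ± 0.56, adjusted p = 0.019). The call was lost under median and ribosomal protein centring and when any of 4 arrays was left out. Without haploid cycle 14 replicate 1 or 2 its adjusted p was 0.069 or 0.10, and without early cycle 15 replicate 2 or 3 it was 0.055 or 0.076. At an unadjusted p below 0.05, Octbeta1R was also higher and AkhR lower in the second diploid step and AkhR higher in the second haploid one, both below background on all arrays.

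Among G protein subunits Galphas, which activates adenylyl cyclases, rose at every step. Its arrays gave 16.9, 24.7 and 23.9 at diploid cycle 13, below background, then 60.7 ± 3.26 on average at early cycle 14 and 556 ± 95.7 at late cycle 14. The first step was at least 1.90-fold (adjusted p = 4.5e-07) and the second a log2 difference of 3.18 ± 0.18 (adjusted p = 1.1e-12). In haploids the means were 55.5 ± 13.8, 213 ± 22.96 and 1092 ± 22.4, with log2 differences of 1.96 ± 0.18 (adjusted p = 1.1e-08) and 2.37 ± 0.18 (adjusted p = 1.2e-10). Its groups stood in the same order as those of Ac78C, and as for Ac78C the same-cycle pair overlapped (-0.16 ± 0.18, adjusted p = 0.63). Galphas was higher in haploids in each matched pair, by at least 1.70-fold, by 1.81 ± 0.18 and by 0.99 ± 0.18 on the log2 scale. The first of these calls was lost under poly-A spike centring, with an adjusted p of 0.062 and a log2 difference of 0.55. Its probe set has the suffix _s_at, used for probes shared between transcripts.

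The other G protein genes moved less. Galphai, the inhibitory subunit, stood between 3859 and 4535 on average in all 6 groups and was called in no step on these values, though under the deposited or poly-A scaling it was called in 3 of the 4 (adjusted p from 0.0062 to 0.031). Galphao was 900.0 at diploid cycle 13 and 1101 at early cycle 14 (0.29 ± 0.07, adjusted p = 0.0037), a call lost under median, ribosomal protein and poly-A spike centring (adjusted p of 0.15, 0.46 and 0.28). Galphaq rose in the second diploid step from 40.8 ± 22.9 to 104 ± 21.0 (1.53 ± 0.50, adjusted p = 0.024), a call that was lost without diploid early cycle 14 replicate 1 (adjusted p = 0.19), late cycle 14 replicate 1 (0.080) or late cycle 14 replicate 3 (0.071), and on the deposited and poly-A scalings. In the second haploid step Galphaq differed by 1.29 and was not called (adjusted p = 0.059). There it was called higher on the deposited scale and under median and ribosomal protein centring (adjusted p of 0.035, 0.023 and 0.025). Gbeta5 fell to below background in the second diploid step, at least 1.42-fold from 45.5 ± 5.95 (adjusted p = 0.0011). Concertina, cta, known for its part in gastrulation, fell by 0.30 ± 0.07 in the second diploid step and by 0.68 ± 0.07 in the second haploid step on the log2 scale.

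Among the adenylyl cyclases other than Ac78C, which as a member carries no test, 5 were tested. None of them was called higher in any of the 4 steps. At an unadjusted p below 0.05, Ac13E was higher in the first diploid step and lower in the second haploid step. Of the 8 others with a probe set, 6 stayed below background on all 18 arrays: Ac76E and ACXA to ACXE. The calcium-stimulated cyclase rut fell in the second diploid step from 43.3 ± 14.2 to below background, at least 1.31-fold (adjusted p = 2.2e-04), and in the second haploid step from 39.6 ± 12.6 to 15.1 ± 5.63 (adjusted p = 0.013). The haploid call was lost without early cycle 15 replicate 2 (adjusted p = 0.077) or late cycle 15 replicate 3 (0.089). Ac13E was between 39.4 and 77.7 on average and was not called in any step after adjustment. Without haploid early cycle 15 replicate 1 it was called lower in the second haploid step (-0.75, adjusted p = 0.03). It was lower in haploid late cycle 15 than in diploid late cycle 14 (-1.02 ± 0.25, adjusted p = 0.0031), a call lost under median and ribosomal protein centring (adjusted p of 0.056 and 0.052).

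Of the phosphodiesterases, which remove cyclic AMP and cyclic GMP, Pde11 fell throughout. Its mean was 727 ± 74.7, 437 ± 5.59 and 129 ± 20.7 over the diploid stages and 347 ± 36.4, 208 ± 17.2 and 56.5 ± 18.2 over the haploid ones, with no overlap between successive stages. The log2 differences were -0.73 ± 0.17 (adjusted p = 0.0015) and -1.77 ± 0.17 (8.3e-09) in diploids, and -0.73 ± 0.17 (0.0020) and -1.93 ± 0.17 (1.5e-09) in haploids. The first diploid call was lost on the deposited and poly-A scalings (both adjusted p = 0.093) and the first haploid one on the poly-A scaling (0.15). Pde11 was lower in haploids in all 3 matched pairs, by -1.07, -1.07 and -1.23. Dunce, dnc, which removes cyclic AMP, was at 204 at diploid cycle 13 and 180 ± 20.6 at haploid early cycle 15, and fell in the last haploid step to 73.1 ± 28.2 (-1.37 ± 0.19, adjusted p = 3.6e-06). It was also called lower in the second diploid step under the 4 other scalings (-0.79 to -1.13, adjusted p from 3.0e-04 to 0.0020), where the reported difference was -0.35 (adjusted p = 0.21). Pde1c and Pde9 were near background and not called.

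All 4 anchoring genes, whose proteins tether protein kinase A, were above background in some group. Akap200 rose in each step by 0.28 to 0.40 on the log2 scale, from 1334 to 2090 in diploids and from 1449 to 2510 in haploids. None of the 4 calls held under every scaling: the second diploid one was lost under all 4 others (adjusted p from 0.52 to 0.94) and without early cycle 14 replicate 1 (0.11) or late cycle 14 replicate 3 (0.14), and the other 3 were lost under 2 or 3 of them. Rugose, rg, rose from 116 ± 4.95 to 250 ± 79.7 in the first diploid step (1.05 ± 0.20, adjusted p = 2.1e-04) and by 0.61 and 0.54 in the haploid steps. The diploid call was lost under median, ribosomal protein and poly-A spike centring, with adjusted p of 0.067, 0.23 and 0.15. The first haploid call was lost under median and ribosomal protein centring (0.30 and 0.24) and without cycle 14 replicate 3 (0.14), early cycle 15 replicate 1 (0.12) or replicate 2 (0.059). The second was lost under all 4 other scalings (0.096 to 0.75) and without any of 5 arrays, early cycle 15 replicate 2 or 3 or late cycle 15 replicate 1, 2 or 3 (0.062 to 0.15). The gene pkaap fell and then rose in both series. Its mean was 229 ± 17.7, 70.0 ± 11.5 and 122 in diploids and 54.8 ± 17.3, 28.6 ± 9.71 and 137 ± 39.0 in haploids, and all 4 steps were called. The last rise measured 2.28 ± 0.26 (adjusted p = 1.1e-07) from a group with 1 of 3 arrays above background. The first diploid fall and the last haploid rise held under all scalings and left-out arrays. The diploid rise (0.81, adjusted p = 0.018) was lost under all 4 other scalings (0.24 to 0.71) and without early cycle 14 replicate 3 (0.097) or late cycle 14 replicate 1 (0.055) or 2 (0.064). The haploid fall (-0.93, adjusted p = 0.0092) was lost on the deposited scale (0.43), under ribosomal protein and poly-A spike centring (0.088 and 0.81), and without cycle 14 replicate 3 or early cycle 15 replicate 2 (both 0.067). spoon stood between 2487 and 3049 and was likewise called in no step on these values and in 3 under the deposited or poly-A scaling (adjusted p from 0.0042 to 0.024).

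Around Epac, the Rap exchange factors and the Rap inactivator each took a different course. RapGAP1, which switches Rap off, fell in the first diploid step from 498 ± 37.2 to 183 ± 26.3 (-1.45 ± 0.16, adjusted p = 1.2e-07) and was at 171 ± 33.5 at late cycle 14. That second difference, -0.11 as reported, was called lower on the deposited scale (-0.67, adjusted p = 0.042) and under median and poly-A spike centring (-0.62 and -0.87, adjusted p of 0.016 and 0.010). In haploids it was 223 ± 45.3 and 195 ± 17.5 and then rose to 639 ± 107 (1.70 ± 0.16, adjusted p = 4.7e-09). C3G rose by 0.61 ± 0.16 in the first diploid step and fell by 0.49 ± 0.16 in the second, and PDZ-GEF fell in the last haploid step (-1.02 ± 0.20, adjusted p = 2.6e-04). The PDZ-GEF call was lost on the deposited scale (-0.61, adjusted p = 0.062) and under ribosomal protein centring (-0.56, 0.068). In the second diploid step PDZ-GEF was called lower under the 4 other scalings (-0.77 to -1.11, adjusted p from 5.3e-04 to 0.011), where the reported difference was -0.43 (adjusted p = 0.13). The first C3G change was called neither on the deposited scale nor under the other centrings (adjusted p from 0.23 to 1). The second lost its call when any of 3 arrays was left out (adjusted p from 0.071 to 0.12).

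Near CrebB, the kinase Sik3, which phosphorylates Crtc-type coactivators, fell in all 4 steps. It was 719 ± 65.8, 271 ± 19.3 and 26.8 ± 0.946 over the diploid stages and 295 ± 10.4, 117 ± 20.02 and 10.4 ± 6.67 over the haploid ones. The first steps were -1.41 ± 0.26 (adjusted p = 2.1e-04) and -1.35 ± 0.26 (4.6e-04), and the second steps, which ended below background, were falls of at least 8.45-fold (4.8e-10) and at least 3.62-fold (7.5e-11). The coactivator gene nej was 459, 736 and 844 in diploids and 314 ± 9.83, 641 ± 56.2 and 1138 in haploids. It rose in the first diploid step by 0.71 ± 0.14 and in both haploid steps by 1.03 ± 0.14 and 0.82 ± 0.14. The diploid call was lost under ribosomal protein centring (0.41, adjusted p = 0.055) and the last one under poly-A spike centring (0.19, adjusted p = 0.48). Crtc rose in the first step of both series, by 0.43 ± 0.11 and 0.61 ± 0.11, and fell in the last haploid step by 0.60 ± 0.11. The diploid Crtc call was lost without early cycle 14 replicate 3 (adjusted p = 0.054) and under median, ribosomal protein and poly-A spike centring (0.26, 0.69 and 0.46). In the second diploid step Crtc was called lower under the 4 other scalings (-0.54 to -0.88), where the reported difference was -0.17 (adjusted p = 0.33). Sik2 was below background throughout.

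**Figure D4:**
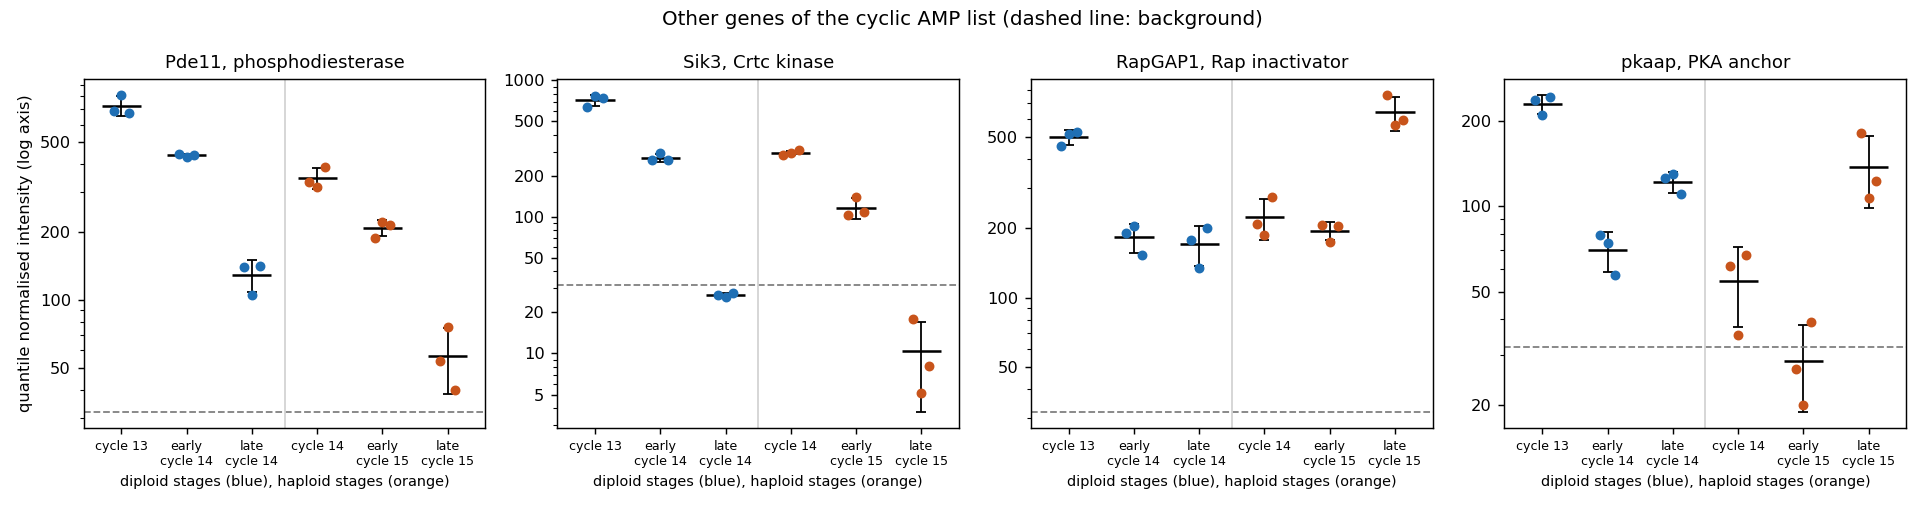
Quantile normalised intensity (log axis) of Pde11, Sik3, RapGAP1 and pkaap on each array of the 6 groups, with the mean (bar), SD (whiskers, n = 3) and background (dashed line). Pde11 and Sik3 fall from stage to stage in both series, Sik3 to below background, while RapGAP1 is highest at haploid late cycle 15, at 639 on average.

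Between ploidies at the same cycle, 4 of the 43 list genes were called lower in haploid embryos, rg, Crtc, nej and Ih, and none higher, against 12.0% and 12.4% of all tested genes. At an unadjusted p below 0.05, Galphao was higher and Akap200 was lower as well. nej was 314 ± 9.83 in haploid cycle 14 and 736 ± 81.1 in diploid early cycle 14 (-1.22 ± 0.14, adjusted p = 6.4e-07). Ih, a channel gated by hyperpolarisation and cyclic nucleotides, was 44.8 ± 15.7 in the diploids and below background in haploid cycle 14, at least 1.35-fold lower (adjusted p = 7.0e-04). The rg call (-0.56, adjusted p = 0.048) was lost without haploid cycle 14 replicate 1, 2 or 3 or diploid early cycle 14 replicate 2 or 3 (adjusted p from 0.061 to 0.26). On the deposited scale 20 genes of the list were lower, where the median of all tested genes was -0.76. There 5510 of the 10032 tested genes were called, and 0.871% of those calls were higher.

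In the matched pairs the counts of list genes called higher and lower were 3 and 8 in the earliest pair, where 24.2% and 18.2% of all tested genes were called. They were 1 and 5 in the early pair, against 16.4% and 15.1%, and 6 and 6 in the late pair, against 11.2% and 14.2%. Galphas was higher and Pde11 lower in haploids in all 3. Sik3 was lower in the first and second of them, and in the late pair, although called, it was below background in both groups and has no readable direction. Among list genes above background, the late pair differed most in RapGAP1, at 639 ± 107 in haploids and 171 ± 33.5 in diploids (1.91 ± 0.16, adjusted p = 1.7e-09), and in dnc (-1.31 ± 0.19, adjusted p = 1.2e-05).

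Whether haploid and diploid steps differed in size was tested directly as the difference of the changes. For the first step 1 list gene was called higher and 2 lower, against 4.71% and 6.37% of all tested genes. For the second step 4 were called higher and 3 lower, against 8.01% and 9.79%. RapGAP1 was called in both. AkhR, among the 4, was below background on all arrays.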

How the data were processed

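The deposited values are linear probe set intensities made with MAS5 by the authors, per the submitters' processing notes. The version and the target of its scaling were not given in the sources used here. From the 18952 probe sets, 183 controls were set aside. The 18 arrays were quantile normalised, values were floored at the smallest positive intensity of 0.1, and log2 was taken. A probe set was tested if 3 or more arrays reached 12.0, the 40th percentile of the table, which kept 14553. One limma model (version 3.58.1, R 4.3.3) with 6 group means and an intensity trend was fitted, and p-values were adjusted by Benjamini-Hochberg within each contrast. The number of arrays, 3 per group, limits the precision. The procedure was tested on simulated data.

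By the annotation of the array, 13647 probe sets have 1 gene symbol, 402 have several and 4720 have none. A gene is represented by its brightest tested probe set, which left 10032 genes. The 4 members and the gene lists were chosen with earlier results of these data known, so no member was tested. List genes are named if they share a role with a member, or if they were called with a log2 difference of at least 1 and no overlap and were above background, at most 6 per contrast, and list calls are also given by role. The alternatives were 4 other scalings, an offset of 16, other probe sets, no filter, no trend, a replicate block and leaving out each array. The RNA of all 3 replicates of a group was collected as separate samples of embryos, per the labels.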

Additional observations from a re-analysis of the deposited data

Results flagged for a closer look

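For 8 genes of the cyclic AMP list that were above background in at least 1 group, the change over a step differed between haploid and diploid embryos by the direct limma test of the difference, with p adjusted by Benjamini-Hochberg over all tested probe sets. The haploid minus diploid change is given on the log2 scale with its standard error, and 3 arrays per group lie behind each. AkhR was called in the second step too (adjusted p = 0.029) but was below background on all arrays and is left out. In the first step 2.33% of the 43 list genes were called higher and 4.65% lower, against 4.71% and 6.37% of all tested genes. In the second step, with AkhR counted, 9.30% were higher and 6.98% lower, against 8.01% and 9.79%. The shares of the list thus lie near or below those of all genes.

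In the first step, RapGAP1 differed by 1.27 ± 0.22 (adjusted p = 4.2e-04), with a change of -0.18 in haploids and -1.45 in diploids. C3G differed by -1.07 ± 0.23 (adjusted p = 0.0035), with -0.47 and 0.61. Galphao differed by -0.33 ± 0.10 (adjusted p = 0.047), with -0.04 and 0.29.

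In the second step, RapGAP1 differed by 1.81 ± 0.22 (adjusted p = 3.7e-06), with a change of 1.70 in haploids and -0.11 in diploids. The anchor gene pkaap differed by 1.47 ± 0.36 (adjusted p = 0.0062), with 2.28 and 0.81. nej differed by 0.62 ± 0.20 (adjusted p = 0.033), with 0.82 and 0.20. Galphas differed by -0.82 ± 0.25 (adjusted p = 0.027), with 2.37 and 3.18. cta differed by -0.38 ± 0.10 (adjusted p = 0.011), with -0.68 and -0.30. dnc differed by -1.01 ± 0.27 (adjusted p = 0.012), with -1.37 and -0.35.

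RapGAP1 kept its call in both steps under every scaling tried. The differences of C3G, Galphao, Galphas, cta and dnc were called neither on the deposited scale nor under median, ribosomal protein or poly-A spike centring, and those of pkaap and nej were lost under poly-A spike centring alone among the scalings. That of nej was also lost without the filter (adjusted p = 0.051) and without the intensity trend (0.13). It was lost too without haploid early cycle 15 replicate 1, haploid late cycle 15 replicate 1 or 3, diploid early cycle 14 replicate 2 or diploid late cycle 14 replicate 2 (0.077 to 0.10). The causes were not tested.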

How the results depend on the processing

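For Ac78C and Pka-C3 the 4 steps, the 3 matched pairs and the same-cycle pair were checked. Each of these differences kept its direction under every scaling, offset, block and left-out array tried. The differences between haploid early cycle 15 and diploid late cycle 14, and those in step size, were not put through all of these alternatives. Sizes moved with the scaling, since the authors' arrays differ in overall brightness. The upper quartile of the deposited values was 206 to 269 on the diploid cycle 13 arrays and 85.6 to 118 on those of haploid cycle 14. Brightness thus differed between groups and cannot be told apart from stage and ploidy, and the cause of that difference was not tested. The median of all tested genes was shifted by -0.76 in the same-cycle pair and by -0.51 in the earliest matched pair on the deposited scale, and by 0.61 and -0.63 in the first and second haploid steps under poly-A spike centring. With it, of all calls in the first diploid step 60.1% were higher as reported, 64.5% on the deposited scale and 24.3%, 15.8% and 22.8% under median, ribosomal protein and poly-A spike centring. In the second diploid step this share went from 51.7% to 18.2%, 20.4%, 25.5% and 11.9%, in the first haploid step from 48.6% to 79.7%, 24.9%, 30.8% and 92.5%, and in the second haploid step from 48.1% to 44.3%, 45.9%, 47.6% and 12.5%. In the same-cycle pair it went from 50.8% to 0.871%, 22.5%, 14.6% and 0.919%. In the 3 matched pairs it went from 57.1%, 52.1% and 43.9% to 5.17%, 5.51% and 14.7% on the deposited scale, to 33.9%, 11.5% and 35.4% under median centring, to 15.4%, 12.2% and 26.0% under ribosomal protein centring, and to 3.54%, 14.0% and 9.63% under poly-A spike centring. A count of calls higher or lower is therefore relative to the scaling chosen. Epac and CrebB are limited by their signal, which lies near or below background, and the bounds in the report stand in for their fitted differences.

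On the deposited scale, the log2 difference of Ac78C was 1.14 in the second diploid step, 1.37 in the first haploid step, 1.97 in the earliest matched pair, 0.40 in the early matched pair, 0.31 in the late matched pair and -0.97 in the same-cycle pair. Under median centring, the log2 difference of Ac78C was 1.19 in the second diploid step, 0.60 in the early matched pair and 0.48 in the late matched pair. Under ribosomal protein centring, the log2 difference of Ac78C was 1.28 in the second diploid step, 2.23 in the earliest matched pair and 0.61 in the early matched pair. Under poly-A spike centring, the log2 difference of Ac78C was 0.95 in the second diploid step, 1.61 in the first haploid step, 0.47 in the second haploid step, 1.85 in the earliest matched pair, 0.23 in the late matched pair and -0.90 in the same-cycle pair. On the deposited scale, the log2 difference of Pka-C3 was 4.90 in the first diploid step, 2.22 in the second diploid step, 2.73 in the first haploid step, 2.05 in the second haploid step, 3.33 in the earliest matched pair, 1.16 in the early matched pair and -1.56 in the same-cycle pair. Under median centring, the log2 difference of Pka-C3 was 2.27 in the second diploid step, 2.07 in the second haploid step, 1.37 in the early matched pair and -0.88 in the same-cycle pair. Under ribosomal protein centring, the log2 difference of Pka-C3 was 2.36 in the second diploid step, 2.09 in the second haploid step, 3.60 in the earliest matched pair, 1.38 in the early matched pair and -0.95 in the same-cycle pair. Under poly-A spike centring, the log2 difference of Pka-C3 was 4.71 in the first diploid step, 2.03 in the second diploid step, 2.97 in the first haploid step, 1.47 in the second haploid step, 3.21 in the earliest matched pair, 1.47 in the early matched pair and -1.49 in the same-cycle pair. With an offset of 16, the log2 difference of Pka-C3 was 2.44 in the first diploid step, 2.40 in the second diploid step, 2.04 in the first haploid step, 1.99 in the earliest matched pair and 1.59 in the early matched pair. With an offset of 16, the log2 difference of Epac was -1.58 in the second diploid step, -1.49 in the earliest matched pair and -1.43 in the same-cycle pair. With its other probe set, below background throughout, that of Epac was -0.57 in the second diploid step, -0.26 in the earliest matched pair, -0.37 in the early matched pair and 0.02 in the same-cycle pair. With an offset of 16, the log2 difference of CrebB was -1.31 in the first diploid step and -1.41 in the earliest matched pair. With its other probe set, below background throughout, that of CrebB was -0.55 in the first diploid step and 0.81 in the earliest matched pair.

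On the deposited scale, the list genes called higher were 1 in the second diploid step, 1 in the earliest matched pair, 2 in the late matched pair and 2 in the first-step difference. The genes called lower were 10 in the second diploid step, 2 in the first haploid step, 20 in the same-cycle pair, 16 in the earliest matched pair, 12 in the early matched pair, 0 in the first-step difference and 0 in the second-step difference. Of all 10032 tested genes, 2833 were called in the second diploid step, 2885 in the first haploid step and 5510 in the same-cycle pair. In the matched pairs 3694, 3032 and 1779 were called. The shares of such calls that were higher are given above. The counts out of 43 list genes are to be read against these totals. Under median centring, the list genes called higher were 2 in the first diploid step, 2 in the second diploid step, 3 in the first haploid step, 3 in the late matched pair, 2 in the first-step difference and 7 in the second-step difference. Called lower were 10 in the second diploid step, 7 in the same-cycle pair, 9 in the early matched pair, 0 in the first-step difference and 0 in the second-step difference. Here 2176 and 2998 of all tested genes were called in the diploid steps and 2212 in the first haploid step. The totals were 1826 in the same-cycle pair, 2586 in the early matched pair and 1888 in the late one. Under ribosomal protein centring, the list genes called higher were 1 in the first diploid step, 2 in the second diploid step, 3 in the first haploid step, 1 in the earliest matched pair, 2 in the late matched pair and 2 in the first-step difference. Lower calls numbered 8 in the same-cycle pair, 13 in the earliest matched pair, 8 in the early matched pair, 0 in the first-step difference and 0 in the second-step difference. Here 2097 and 2606 of all tested genes were called in the diploid steps and 1877 in the first haploid step. The totals were 1735 in the same-cycle pair and 3250, 2421 and 1718 in the matched pairs. Under poly-A spike centring, the list genes called higher were 2 in the first diploid step, 1 in the second diploid step, 11 in the first haploid step, 4 in the second haploid step, 0 in the earliest matched pair, 2 in the late matched pair, 5 in the first-step difference and 1 in the second-step difference. The genes called lower were 10 in the second diploid step, 1 in the first haploid step, 15 in the second haploid step, 14 in the same-cycle pair, 17 in the earliest matched pair, 0 in the first-step difference and 0 in the second-step difference. Here 1518 and 3036 of all tested genes were called in the diploid steps and 3627 and 4248 in the haploid ones. The totals were 4136 in the same-cycle pair, 3734 in the earliest matched pair and 1516 in the late one. With an offset of 16, the list genes called higher were 2 in the early matched pair and 4 in the first-step difference. Without the filter, the list genes called higher were 5 in the earliest matched pair. The genes called lower were 1 in the first-step difference. Without the intensity trend, the list genes called higher were 3 in the second diploid step. Called lower were 1 in the first-step difference and 0 in the second-step difference.

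Leaving out 1 array at a time, the list genes called higher were 2 to 4 in the second diploid step, 0 to 1 in the same-cycle pair, 2 to 5 in the earliest matched pair, 1 to 2 in the early matched pair, 2 to 5 in the late matched pair, 1 to 3 in the first-step difference and 2 to 5 in the second-step difference. Those called lower were 2 to 3 in the first haploid step and 1 to 2 in the first-step difference.

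Of the 37 pairs of a list gene and a comparison named for their size of change, 32 kept their call and direction under all alternatives. Of all 81 calls of list genes in the 8 comparisons of groups, 50 held under every scaling. Without diploid early cycle 14 replicate 1 the Epac difference of the first diploid step was 0.05. C3G in the first haploid step went from -0.47 to 0.07 and Galphao in the first-step difference from -0.33 to 0.19 under poly-A spike centring, neither called there, and the cause was not tested. Residuals of arrays with the same replicate number had a median correlation of -0.0037 over 45 pairs, and 7 of 18 arrays correlated best with their own number. No pairing by number was thus detected. Whether samples with the same number were collected together is not given in the labels. With the replicate number as a block, the fit lost 3 calls of list genes in these 8 comparisons, C3G in the first haploid step (-0.47, adjusted p = 0.054) and rg in the second haploid step and the same-cycle pair (0.54 and -0.56, adjusted p of 0.055 and 0.059), and gained Akap200 in the same-cycle pair (-0.25, adjusted p = 0.025). The counts of list genes called higher in the 4 steps were 7, 5, 6 and 7 with the block and those called lower 5, 6, 3 and 7.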
